A study of Mus musculus with 8 samples.

Results

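The response of wild-type (WT) macrophages to lipopolysaccharide (LPS) was measured as the difference between 2 libraries of cells given LPS for 6 h and 2 libraries of cells without it. These 4 libraries were chosen by their labels out of the 8 in the series. The cells were bone marrow-derived macrophages of mice, which are grown in culture from marrow progenitors. The remaining 4 libraries, 2 without LPS and 2 with it, carry the label of a knockout (KO) of the transcription factor ELF1 and entered here only to estimate the spread between libraries and to show where the WT response differed. Libraries labelled M1 were read as the LPS arm, because LPS is the only stimulus in the study's design. No source used here gives the LPS dose, the strain, age and sex of the mice or the culture conditions. Nothing in the labels tells whether the paired libraries of a group came from separate animals, so every p-value measures only the spread between these libraries, which may be technical.

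LPS is a glycolipid that coats Gram-negative bacteria. Macrophages sense it through the receptor TLR4, which signals through the adaptors MyD88 and TRIF to NF-kB, AP-1 and interferon regulatory factors. Cytokines, chemokines and interferon-stimulated genes are the best known products of that response, and macrophages so treated are also known to change their metabolism, surface receptors and cytoskeleton. Genes outside the best known inflammatory set are described here.

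Each library held 15753259 to 18058974 reads in genes, as rebuilt from the deposited values. Reads of the top 10 genes made up 12.5% to 13.3% of a library without LPS and 8.14% to 8.49% of one with it. All 12 macrophage markers reached 1 FPKM, and their summed level was 10700 to 10811 FPKM without LPS and 9155 to 9336 FPKM with it. Of 6 T and NK cell markers none reached 1 FPKM, and Cd3d, Cd3e, Cd3g and Trac were at 0 in all 4 libraries. Of 10 neutrophil markers 5 reached 1 FPKM, and their sum was 7.43 to 10.6 FPKM without LPS and 18.4 to 18.7 FPKM with it, with Retnlg at 0. Most of that increase was that of S100a8, at 0.591 and 1.59 FPKM without LPS and 9.29 and 9.27 FPKM with it, while Mmp8 fell by 0.32 on the log2 scale. The 6 fibroblast and endothelium markers, 4 of them at 1 FPKM or more, summed to 17.0 to 25.4 FPKM without LPS and 33.0 to 41.0 FPKM with it. Kdr carried this increase, from 14.5 and 14.1 to 29.7 and 31.4 FPKM, and Col1a1 and Col1a2 did not pass, at -0.24 and -0.29. The part of these other cells in the results was not tested. The B cell, dendritic cell, erythroid, megakaryocyte and mast cell markers summed to at most 2.80 FPKM each in every WT library. In bulk RNA, fewer cells of a type and less RNA per cell cannot be told apart.

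Levels were FPKM, which are reads per gene divided by gene length and library size, and changes were differences of log2(FPKM + 1) between the group means, given ± SE with 2 libraries in each group. This scale understates the changes of genes with low FPKM. The threshold was an adjusted p of 0.05 (limma, Benjamini-Hochberg adjustment over all 11887 tested genes, two-sided), and only genes that passed are said to have risen or fallen.

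Of the 11887 genes tested, 4476 (37.7%) rose with LPS and 4028 (33.9%) fell. As deposited, rises and falls were closer in number than in size. A change of at least 1 on the log2 scale was reached by 2005 rising genes (16.9%) and 1232 falling genes (10.4%), a change of at least 3 by 409 and 67, and a change of at least 5 by 106 and 1. The single fall past 5 was that of Arhgap19. Of the 409 rises of at least 3, 237 (57.9%) belonged to genes outside the best known inflammatory set. The 2 libraries of a group differed by a median of 0.103 log2 units without LPS and 0.0871 with it. The groups did not overlap for 10091 genes (84.9%).

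The split between rises and falls rested on the scaling of the values. As deposited, the median change of all tested genes was 0.04 and 52.6% of the genes that passed were higher. When each library was scaled to the same FPKM total (TPM), 15752 genes reached the filter, of which 2763 (17.5%) were higher and 7979 (50.7%) lower, and the median was -0.51. Scaling to total reads gave a median of -0.48 with 12137 genes tested, and 25.3% of those that passed were higher, against 25.7% with TPM. Quantile normalization gave -0.13 and 41.8%. Small changes therefore have a direction only relative to a scaling, and the counts of each gene list are given also with TPM scaling, where they are to be read against the shares under that scaling.

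**Figure D1:**
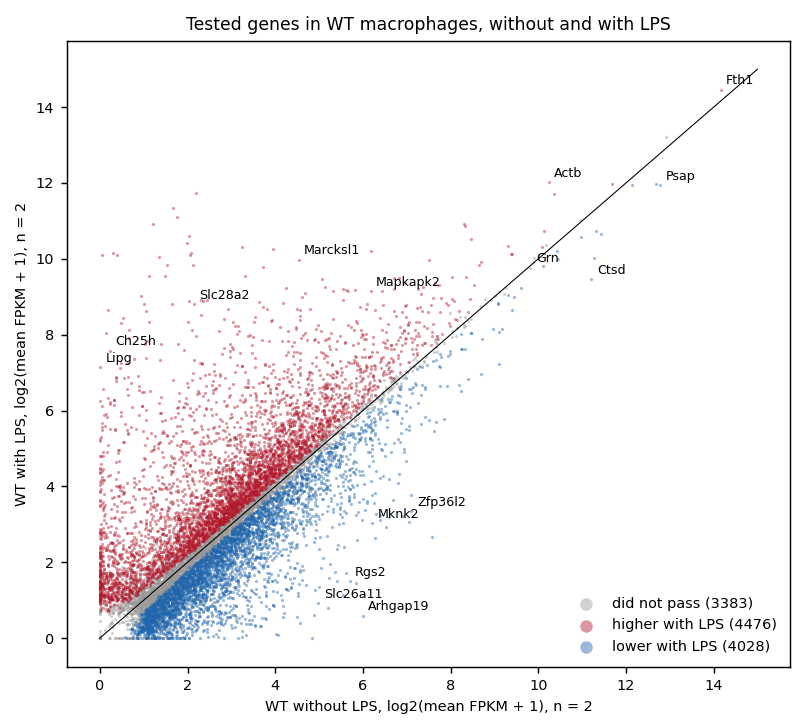
Level of each tested gene in WT without LPS (x axis) and with LPS (y axis), both as log2(mean FPKM + 1) over 2 libraries, with genes that rose in red, genes that fell in blue, those that did not pass in grey and the line of equal levels in black. The red points reach further from the line than the blue ones, with Ch25h 7.35 above it and Arhgap19, the largest fall, at -5.4.

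The 16 largest rises outside the best known set fell mostly into enzymes, transporters, receptors and signalling proteins. Ch25h (ENSMUSG00000050370, on chromosome 19 from base 34473786 to 34475135 in mm10), which encodes cholesterol 25-hydroxylase, the enzyme that makes 25-hydroxycholesterol, had 0.236 and 0.102 FPKM without LPS and 183 and 196 FPKM with it and rose by 7.35 ± 0.11 (adjusted p = 6.94e-09). Lipg, encoding endothelial lipase, was at 0 and 0 FPKM without LPS and 128 and 153 FPKM with it and rose by 7.14 ± 0.09 (adjusted p = 4.80e-09). With both libraries without LPS at 0, the floor of 3 reads per library makes Lipg at least 3520-fold higher with LPS as deposited. Such a bound shifts with the scaling of the values. Serpinb2, encoding the plasminogen activator inhibitor PAI-2, had 1.24 and 0.470 FPKM without LPS and 99.8 and 97.1 FPKM with it and rose by 5.78 ± 0.28 (adjusted p = 1.93e-06). The libraries with and without LPS did not overlap for any of these 3 genes, as the choice of the largest rises and falls requires.

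Transporters and channels formed a further group. Slc28a2, which encodes a sodium-coupled nucleoside transporter, was measured at 3.27 and 3.55 FPKM without LPS and 408 and 486 FPKM with it and rose by 6.66 ± 0.09 (adjusted p = 4.62e-09). Slco3a1, a member of the organic anion transporter family, had 0.662 and 0.412 FPKM without LPS and 92.8 and 95.1 FPKM with it and rose by 5.95 ± 0.08 (adjusted p = 5.05e-09). Slc2a6, which encodes the hexose transporter family member GLUT6, stood at 6.65 and 6.51 FPKM without LPS and 411 and 409 FPKM with it and rose by 5.76 ± 0.05 (adjusted p = 1.33e-09). Calhm6, of the calcium homeostasis modulator family of membrane channels, was found at 1.13 and 1.01 FPKM without LPS and 151 and 183 FPKM with it and rose by 6.34 ± 0.10 (adjusted p = 7.72e-09). For all 4 genes both libraries with LPS stood above both without it, as their choice requires.

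Surface receptors were represented by 5 genes. Hcar2, which encodes a G protein-coupled receptor for niacin and the ketone body beta-hydroxybutyrate, had 0.307 and 0.191 FPKM without LPS and 67.4 and 71.5 FPKM with it and rose by 5.82 ± 0.07 (adjusted p = 4.36e-09). Adora2a and Adora2b encode receptors for adenosine, and both rose. Adora2a was at 0.149 and 0.0450 FPKM without LPS and 59.9 and 59.3 FPKM with it and rose by 5.79 ± 0.06 (adjusted p = 2.54e-09). Adora2b was at 1.29 and 0.723 FPKM without LPS and 89.5 and 89.1 FPKM with it and rose by 5.51 ± 0.12 (adjusted p = 4.20e-08). Tarm1, encoding an activating receptor of myeloid cells, was at 0.287 and 0.311 FPKM without LPS and 113 and 116 FPKM with it and rose by 6.48 ± 0.08 (adjusted p = 3.46e-09). Slamf1, whose product CD150 is a self-ligand receptor of immune cells, had 0.0296 and 0.0448 FPKM without LPS and 46.2 and 53.7 FPKM with it and rose by 5.62 ± 0.08 (adjusted p = 6.60e-09). In all 5 receptor genes both libraries with LPS stood above both without it, again by the choice of genes.

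Among intracellular proteins, Src, the founding member of the Src family of tyrosine kinases, was at 1.38 and 1.02 FPKM without LPS and 90.5 and 91.1 FPKM with it and rose by 5.39 ± 0.08 (adjusted p = 7.03e-09). Marcksl1, encoding an actin-binding substrate of protein kinase C, had 24.4 and 19.9 FPKM without LPS and 977 and 1035 FPKM with it and rose by 5.45 ± 0.09 (adjusted p = 9.21e-09). Ccnd2, encoding the cell cycle regulator cyclin D2, had 0.228 and 0.103 FPKM without LPS and 43.7 and 45.5 FPKM with it and rose by 5.29 ± 0.10 (adjusted p = 1.74e-08). Marcksl1 was already expressed without LPS, and no groups overlapped, as required for these genes to be chosen.

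The only noncoding gene among the 16 was Mir155hg, the host transcript from which the microRNA miR-155 is cut. It had 0 and 0 FPKM without LPS and 80.1 and 70.1 FPKM with it and rose by 6.25 ± 0.11 (adjusted p = 1.42e-08). As deposited, this is at least 728-fold against the floor of 3 reads per library. The libraries measured the host transcript and not the mature microRNA. The mature forms it yields are shown because a reader would recognise the response by their seeds, the capital letters at bases 2 to 8 through which a microRNA pairs with its targets. The sequences are from RefSeq on GRCm38.p6, which is mm10, and lie on the plus strand at chr16:84714143-84714165 and chr16:84714182-84714202.
mmu-miR-155-5p: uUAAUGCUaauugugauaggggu
mmu-miR-155-3p: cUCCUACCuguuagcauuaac

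**Figure D2:**
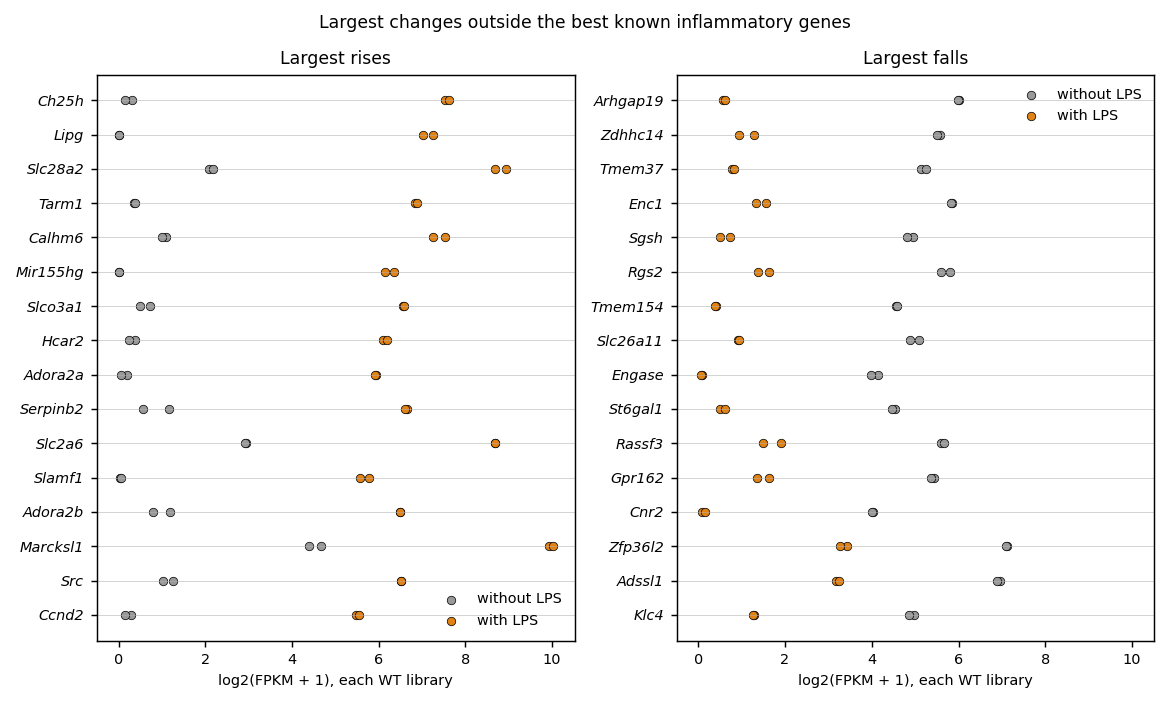
Level as log2(FPKM + 1) in each WT library without LPS (grey points) and with LPS (orange points) for the 16 largest rises (left) and the 16 largest falls (right) outside the best known inflammatory set. The points with and without LPS stand apart for all 32 genes, as the choice of these genes requires.

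Promoter sequence was available from RefSeq (GRCm38.p6, from 250 bases before the start site) for 21 of these 32 genes, and for 296 of the 409 rises of at least 3 (72.4%). With under 80% of the rises covered, a comparison of motif shares between rising and other genes is void and none is given. An interferon-stimulated response element was searched as GAAA, any 2 bases and GAAA, and an NF-kB site as GGGA, any 2 bases and TTCC, each on both strands, and they were present in 2.98% and 1.15% of all 20451 promoters matched by symbol. Of the 21 promoters of the largest rises and falls, that of Calhm6 held a match and the other 20 held none. Over all matched promoters the start site used lay a median of 16 bases from the 5′ end of the deposited gene. It lay 9856 bases away for Mir155hg, 5849 for Src and 294 for Tmem37. For these genes the window may not be the promoter of the measured transcript. The windows shown, each read 5′ to 3′ along a gene on the minus strand, hold the matches of rising genes in capitals, and capitals that begin with TTTC are matches on the other strand. A match describes letters and is not a measured binding site, and the 5 genes other than Calhm6 were chosen for holding a match, after their values were seen. They lie at chr10:34128007-34128056 (Calhm6), chr1:152766322-152766371 (Rgl1), chr11:78984950-78984999 (Lgals9), chr1:172590569-172590603 (Slamf8), chr1:150164992-150165041 (Ptgs2os2) and chr5:137836427-137836476 (Pilra).
Calhm6, response element: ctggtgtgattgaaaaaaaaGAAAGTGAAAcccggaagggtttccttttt
Rgl1, NF-kB motif: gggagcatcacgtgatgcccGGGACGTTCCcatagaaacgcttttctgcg
Lgals9, response element: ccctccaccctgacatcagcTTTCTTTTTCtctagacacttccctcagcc
Slamf8, response element: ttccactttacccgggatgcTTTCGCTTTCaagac
Ptgs2os2, response element: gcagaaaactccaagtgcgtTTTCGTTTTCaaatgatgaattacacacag
Pilra, response element: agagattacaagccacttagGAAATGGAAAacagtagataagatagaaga

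The levels of these genes were as follows. Rgl1, which encodes an exchange factor of the Ral GTPases, had 2.84 and 2.67 FPKM without LPS and 64.1 and 69.9 with it (log2 change 4.18 ± 0.07). Lgals9, encoding the sugar-binding protein galectin-9, moved from 26.3 and 26.8 FPKM to 396 and 426, or by 3.9 ± 0.07 on the log2 scale. Slamf8, a receptor of the SLAM family, went from 1.19 and 1.28 FPKM to 30.3 and 29, a log2 change of 3.78 ± 0.08. Ptgs2os2, an antisense-named transcript beside Ptgs2, had 0.0523 and 0.132 FPKM without LPS and 8.14 and 9.28 with it (log2 change 3.15 ± 0.10). Pilra, an inhibitory receptor of myeloid cells, moved from 0.251 and 0.357 FPKM to 9.77 and 10.5, or by 3.09 ± 0.15 on the log2 scale. The groups did not overlap for any of the 5, which was a condition of their choice.

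The 16 largest falls also included receptors, enzymes, a transporter and signalling proteins. Arhgap19, which encodes a GTPase-activating protein, had 63.1 and 62.4 FPKM without LPS and 0.484 and 0.528 FPKM with it and fell by 5.4 ± 0.05 (adjusted p = 1.83e-09). Rgs2, encoding a regulator that ends signalling by G protein alpha subunits, was at 47 and 54.8 FPKM without LPS and 1.58 and 2.07 FPKM with it and fell by 4.2 ± 0.11 (adjusted p = 7.04e-08). Cnr2, encoding the cannabinoid receptor CB2, stood at 15.3 and 15.2 FPKM without LPS and 0.0552 and 0.117 FPKM with it and fell by 3.9 ± 0.09 (adjusted p = 3.73e-08). Gpr162, an orphan G protein-coupled receptor, had 42.5 and 40.4 FPKM without LPS and 2.12 and 1.55 FPKM with it and fell by 3.91 ± 0.10 (adjusted p = 6.49e-08). Both libraries with LPS lay below both without it for each of these signalling genes, as their choice requires.

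Sgsh, Engase and St6gal1 encode enzymes that act on glycans. Sgsh, encoding the lysosomal heparan sulfatase, had 29.7 and 27 FPKM without LPS and 0.415 and 0.649 FPKM with it and fell by 4.26 ± 0.11 (adjusted p = 8.66e-08). Slc26a11, an anion transporter gene whose annotation begins 20 bases from that of Sgsh on the opposite strand of chromosome 11, was at 33.2 and 28.2 FPKM without LPS and 0.872 and 0.901 FPKM with it and fell by 4.07 ± 0.14 (adjusted p = 3.23e-07). Engase, which encodes a cytosolic enzyme that frees N-glycans from proteins, was at 16.7 and 14.9 FPKM without LPS and 0.0565 and 0.0448 FPKM with it and fell by 3.99 ± 0.08 (adjusted p = 2.36e-08). St6gal1, whose product adds alpha-2,6-linked sialic acid to glycans, had 22.2 and 21 FPKM without LPS and 0.417 and 0.520 FPKM with it and fell by 3.95 ± 0.07 (adjusted p = 1.51e-08).

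The rest of the 16 were mixed. Zdhhc14, encoding a protein palmitoyltransferase, was measured at 46.5 and 44.5 FPKM without LPS and 1.45 and 0.906 FPKM with it and fell by 4.43 ± 0.12 (adjusted p = 8.56e-08). Enc1, encoding an actin-binding kelch protein, had 56.9 and 55.8 FPKM without LPS and 1.53 and 1.95 FPKM with it and fell by 4.39 ± 0.08 (adjusted p = 1.75e-08). Zfp36l2, whose product binds AU-rich elements and promotes mRNA decay, stood at 137 and 137 FPKM without LPS and 9.84 and 8.56 FPKM with it and fell by 3.76 ± 0.06 (adjusted p = 1.13e-08). Adssl1, encoding an adenylosuccinate synthase of purine synthesis, had 123 and 117 FPKM without LPS and 8.06 and 8.45 FPKM with it and fell by 3.7 ± 0.07 (adjusted p = 2.01e-08). Klc4, encoding a kinesin light chain, was at 30.4 and 28 FPKM without LPS and 1.42 and 1.4 FPKM with it and fell by 3.65 ± 0.07 (adjusted p = 1.70e-08). On the log2 scale Tmem37 fell by 4.39, Tmem154 fell by 4.17 and Rassf3 fell by 3.92, and their FPKM without LPS lay between 22.4 and 49.5.

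Some genes crossed between silence and expression. Below 0.1 FPKM in both libraries without LPS and at 5 FPKM or more in both with it were 52 genes, of which 16 belonged to the best known set, and 7 genes made the opposite move. Those named here were chosen after their values were seen. Cd38, encoding an ectoenzyme that consumes NAD, had 0 and 0.0236 FPKM without LPS and 38.7 and 38.4 FPKM with it. Itgb8, encoding an integrin beta subunit that binds latent TGF-beta, had 0.0206 and 0.00831 FPKM without LPS and 27.7 and 25.7 FPKM with it. Scimp, an adaptor of antigen-presenting cells, was at 0 and 0 FPKM without LPS and 13.5 and 17.1 FPKM with it. As deposited, that is at least 106-fold against the floor of 3 reads per library. Shisa3 was at 0.00959 and 0.0677 FPKM without LPS and 17.9 and 17.7 FPKM with it. In the guanine exchange factors of Ras, a family pair moved in opposite directions: Rasgrp1 was at 0 and 0.0164 FPKM without LPS and 21.1 and 18.5 FPKM with it and Rasgrp3 at 8.83 and 9.17 FPKM without LPS and 0.0447 and 0.0630 FPKM with it. Zfyve28, an endosomal FYVE-domain gene, had 8.25 and 8.81 FPKM without LPS and 0.0127 and 0.0269 FPKM with it, and Abcd2, encoding a peroxisomal fatty acid transporter, had 5.31 and 5.54 FPKM without LPS and 0.0123 and 0.0391 FPKM with it. Pnp2 (0.0287 and 0.0869 FPKM without LPS and 17.2 and 16.5 FPKM with it) overlaps Pnp on the same strand, and Olfr56 (0.0101 and 0.0203 FPKM without LPS and 17.7 and 16.2 FPKM with it) overlaps several interferon-inducible GTPase genes, so their reads cannot be told apart from those of their neighbours.

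By amount of transcript rather than by ratio, the response looked different. The largest gain in FPKM was that of Fth1, encoding ferritin heavy chain, which had 18404 and 18200.1 FPKM without LPS and 22186 and 22916 FPKM with it. Its log2 change was 0.30 ± 0.05 (adjusted p = 0.00154) as deposited and turned to -0.30 under TPM scaling. Actb, encoding cytoplasmic actin, had 1238 and 1183 FPKM without LPS and 4073 and 4247 FPKM with it and changed by 1.78 ± 0.06 (adjusted p = 3.26e-07). B2m, encoding the light chain of MHC class I, had 1133 and 1504 FPKM without LPS and 3391 and 3244 FPKM with it and changed by 1.34 ± 0.12 (adjusted p = 5.47e-05). Tnfrsf1b, encoding TNF receptor 2, was at 326 and 308 FPKM without LPS and 1924 and 1930.1 FPKM with it and changed by 2.6 ± 0.05 (adjusted p = 1.72e-08). The other gains of that size were those of Acod1, Rsad2, Ccl5 and Mmp13, which all lay under 5 FPKM without LPS and between 1915 and 3454 FPKM with it.

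The 8 largest losses in FPKM included 3 cathepsin genes. Psap, encoding the precursor of the saposins, had 7273 and 6763 FPKM without LPS and 3921 and 3898 FPKM with it and fell by 0.84 ± 0.05 (adjusted p = 4.25e-06). Ctsd, encoding the protease cathepsin D, had 2368 and 2372 FPKM without LPS and 709 and 699 FPKM with it and fell by 1.75 ± 0.05 (adjusted p = 1.54e-07). The cathepsin genes Ctsb and Ctss changed by -0.57 and -0.39, and the lysozyme gene Lyz2 fell by 0.72 on the log2 scale. Gpnmb, encoding the transmembrane glycoprotein NMB, had 2807 and 2692 FPKM without LPS and 1614 and 1606 FPKM with it and fell by 0.77 ± 0.04 (adjusted p = 2.99e-06). Ftl1, encoding ferritin light chain, fell by 1.23 ± 0.05 (adjusted p = 9.22e-07) with 2436 and 2473 FPKM without LPS and 1063 and 1027 FPKM with it. Apoe, encoding apolipoprotein E, was at 4586 and 4472 FPKM without LPS and 3931 and 4026 FPKM with it, a change of -0.19 ± 0.07 (adjusted p = 0.0414), and it did not pass when any 1 of the 4 WT libraries was left out. Fth1, Actb and Ftl1 have many near-identical pseudogenes, so their values are uncertain where the counting could split reads.

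**Figure D3:**
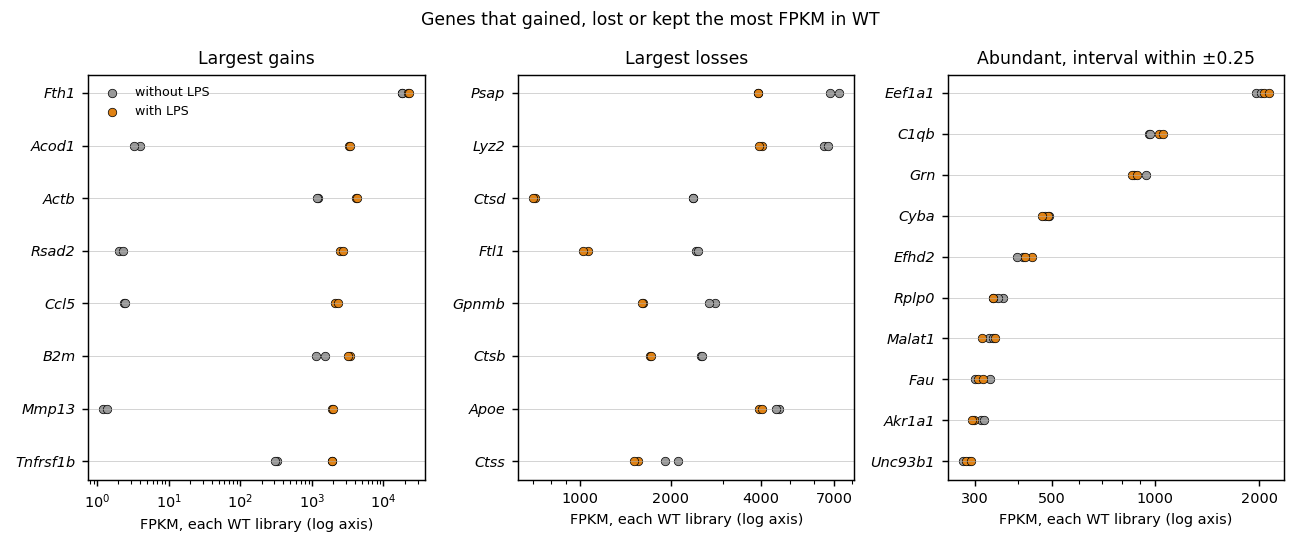
FPKM in each WT library (log axes, points) for the 8 largest gains, the 8 largest losses and 10 abundant genes whose 95% interval of the log2 change lay within 0.25 of 0. The middle panel includes Psap, Ctsd, Ctsb and Ctss, and the stable panel has overlapping or adjacent points with and without LPS.

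Some abundant genes moved little. For 562 genes the 95% interval of the log2 change lay within 0.25 of 0 as deposited. The most abundant were Eef1a1 (0.08), C1qb (0.11), Grn (-0.05), Cyba (-0.02), Efhd2 (0.08), Rplp0 (-0.07), Malat1 (-0.02), Fau (-0.02), Akr1a1 (-0.09) and Unc93b1 (0.02), with log2 changes in parentheses. Eef1a1 encodes a translation elongation factor, C1qb a chain of complement C1q, Cyba a subunit of the phagocyte NADPH oxidase and Unc93b1 a chaperone of nucleic acid-sensing Toll-like receptors. Stability here is relative to the deposited scaling: under TPM scaling all 10 passed as lower, from -0.49 for C1qb to -0.69 for Akr1a1.

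The remaining genes were read through 35 lists covering 1066 tested genes, 2 of them on 2 lists. Counts of members that rose or fell are to be read against the 37.7% and 33.9% of all tested genes, and medians against 0.04. The lists were not tested as sets. From each list, members with the largest changes are given, up to 2 in each direction, among those with a mean of at least 5 FPKM in the higher group. All of these passed, the largest adjusted p being 0.00671 for Pes1. Whether the reads were counted by strand is not given, so a gene that overlaps another cannot be told apart from it, as holds for 52 of the 228 named genes. Overlaps not stated at the gene itself are those of Wars, Slc39a11, Sulf2, Snap47, Gas5, Ctsb, Tox4, Hmgb1, Shisa3 and Csf1r with an annotated gene on the opposite strand, and those of Ch25h, Slc28a2, Tarm1, Slco3a1, Engase, Rassf3, Cars, Odc1, Acsl1, Cers6, Cerk, Fas, Csnk1d, Klf7, Map2k1, Mapkapk2, Ptpra, Nrp2, Plxnc1, Kif13b, Ftl1, Ctss, Mxd1, Fli1, Cd38, Zfyve28 and Mertk with predicted genes, small RNA genes, clones or pseudogenes on either strand.

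**Figure D4:**
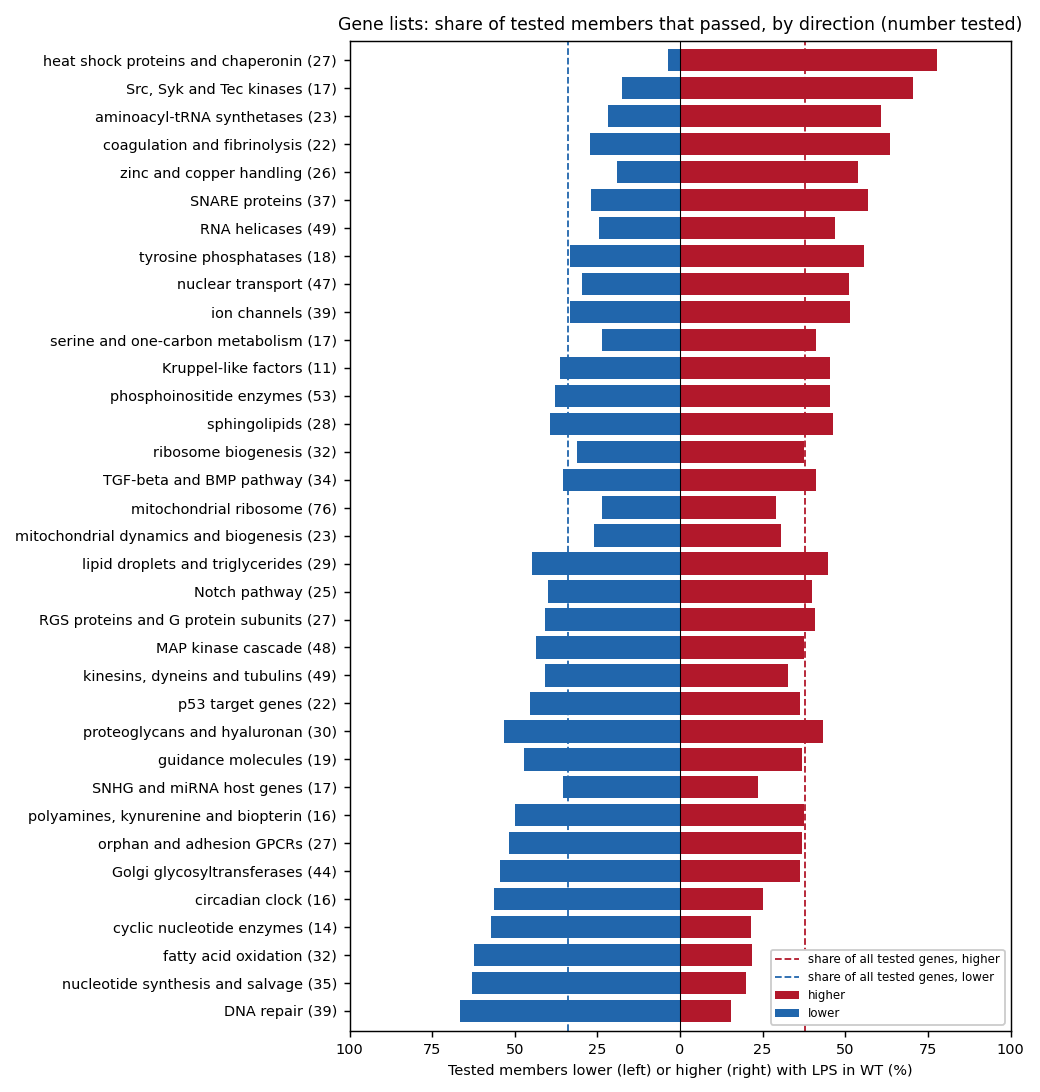
Percent of the tested members of each of 35 gene lists that passed as higher (right) or lower (left) with LPS in WT as deposited, with the number tested in parentheses and dashed lines at the shares of all tested genes, 37.7% higher and 33.9% lower. Heat shock proteins and the Src, Syk and Tec kinases lie at the top, and DNA repair and nucleotide synthesis at the bottom.

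Kinases of the Src, Syk and Tec families relay signals from immune receptors. Of 24 genes listed under Src, Syk and Tec kinases, 17 were tested, 12 rose (70.6%), 3 fell (17.6%) and 2 did not pass, with a median log2 change of 0.81. With TPM, 9 rose and 7 fell out of 18, with a median of 0.31. The list is wider than these families, as it also held the adaptors Blnk, Lat2 and Pag1 and the kinases Csk, Fer, Fes, Ptk2 and Ptk2b. Its median as deposited was the value of Ptk2. Src itself had the largest rise of the list, as given above. Among the falls, Tec, which founds the Tec family, went from 18.8 and 18.5 FPKM to 5.65 and 6.75, a log2 change of -1.45 ± 0.08. Lat2, a membrane adaptor of these kinases, had 32.9 and 30.6 FPKM without LPS and 17.5 and 14.7 with it (log2 change -0.94 ± 0.08), and it overlaps Rfc2 on the opposite strand. Their counterparts, the tyrosine phosphatases, remove phosphate from tyrosine. Of 40 genes listed under tyrosine phosphatases, 18 were tested, 10 rose (55.6%), 6 fell (33.3%) and 2 did not pass, with a median log2 change of 0.47 that was -0.10 with total reads. With TPM, 8 rose and 10 fell out of 21, with a median of -0.18. Ptprj, encoding the receptor phosphatase CD148, moved from 21.6 and 22.6 FPKM to 136 and 135, or by 2.56 ± 0.04 on the log2 scale. Ptpn12, encoding the cytosolic phosphatase PTP-PEST, went from 15.1 and 16.3 FPKM to 67.7 and 67.3, a log2 change of 2.04 ± 0.05. The receptor phosphatase gene Ptpra had 14.6 and 14.7 FPKM without LPS and 12.1 and 12 with it (log2 change -0.26 ± 0.05).

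The MAP kinase cascade carries signals from receptors such as TLR4 to the nucleus. Of 59 genes listed under MAP kinase cascade, 48 were tested, 18 rose (37.5%), 21 fell (43.8%) and 9 did not pass, with a median log2 change of -0.10. With TPM, 13 rose and 32 fell out of 50, with a median of -0.70. Map2k1, encoding the ERK-activating kinase MEK1, moved from 27.7 and 29.1 FPKM to 229 and 229.8, or by 2.97 ± 0.04 on the log2 scale. Mapkapk2, whose product MK2 acts downstream of p38, went from 73.7 and 68.9 FPKM to 566 and 565, a log2 change of 2.97 ± 0.04. Mknk2, encoding a kinase that phosphorylates the translation factor eIF4E, had 78.1 and 67.4 FPKM without LPS and 7.87 and 6.41 with it (log2 change -3.18 ± 0.11). Map3k1, encoding MEKK1, moved from 20.1 and 19.4 FPKM to 4.75 and 4.88, or by -1.84 ± 0.06 on the log2 scale. Phosphoinositide enzymes, which make and remove the lipid signals of the inner membrane, were counted in the same way. Of 68 genes listed under phosphoinositide enzymes, 53 were tested, 24 rose (45.3%), 20 fell (37.7%) and 9 did not pass, with a median log2 change of -0.03. With TPM, 14 rose and 36 fell out of 58, with a median of -0.60. Inpp5b, a phosphatase gene, went from 7.19 and 6.79 FPKM to 57.8 and 59.7, a log2 change of 2.9 ± 0.05. The phosphoinositide 3-kinase regulatory subunit genes went in different directions, since Pik3r6 had 4.36 and 3.79 FPKM without LPS and 27.4 and 27.5 with it (log2 change 2.49 ± 0.08), whereas Pik3r2 moved from 15 and 13.2 FPKM to 1.79 and 1.86, or by -2.42 ± 0.09 on the log2 scale. Plcb2, encoding a phospholipase C activated by G proteins, went from 14.1 and 12.5 FPKM to 1.89 and 1.71, a log2 change of -2.35 ± 0.08.

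G protein signalling runs from receptors through G proteins to enzymes such as those of cyclic nucleotides. Of 100 genes listed under orphan and adhesion GPCRs, 27 were tested, 10 rose (37%), 14 fell (51.9%) and 3 did not pass, with a median log2 change of -0.36. With TPM, 8 rose and 23 fell out of 37, with a median of -0.81. The list also took in Gpr89, Gpr107, Gpr108, Gpr137, Gpr137b, Gpr155 and Gpr180, which are not established G protein-coupled receptors. Its median as deposited was the value of Gpr89, so the counts and medians are those of this wider list. Gpr84, which encodes a receptor for medium-chain fatty acids, had 1.93 and 2.45 FPKM without LPS and 112 and 112 with it (log2 change 5.15 ± 0.09). Gpr85, an orphan receptor gene, moved from 0.346 and 0.495 FPKM to 14 and 13.7, or by 3.39 ± 0.07 on the log2 scale. Gpr157, also an orphan, went from 18.5 and 17.4 FPKM to 1.72 and 1.19, a log2 change of -2.96 ± 0.11. Of 53 genes listed under RGS proteins and G protein subunits, 27 were tested, 11 rose (40.7%), 11 fell (40.7%) and 5 did not pass, with a median log2 change of -0.08. With TPM, 9 rose and 18 fell out of 32, with a median of -0.54. Gnb4, encoding a G protein beta subunit, had 0.798 and 0.768 FPKM without LPS and 15.1 and 16.5 with it (log2 change 3.23 ± 0.08), and Gng2, encoding a gamma subunit, moved from 21 and 20.6 FPKM to 4.59 and 3.88, or by -2.06 ± 0.08 on the log2 scale. Rgs14 went from 2.38 and 2.4 FPKM to 14.4 and 16, a log2 change of 2.26 ± 0.08. Of 45 genes listed under cyclic nucleotide enzymes, 14 were tested, 3 rose (21.4%), 8 fell (57.1%) and 3 did not pass, with a median log2 change of -0.33. With TPM, 5 rose and 15 fell out of 22, with a median of -0.74. The 3 that did not pass as deposited were Pde12, Pde4dip and Pde6d, which do not encode enzymes of cyclic nucleotides. The counts and medians are those of this wider list. Among the phosphodiesterases, which degrade cyclic nucleotides, Pde4b had 2.89 and 2.87 FPKM without LPS and 33.9 and 34.7 with it (log2 change 3.18 ± 0.09), and Pde1b moved from 15.8 and 13 FPKM to 32.9 and 32, or by 1.12 ± 0.09 on the log2 scale. Pde3b, in contrast, went from 9.79 and 11.5 FPKM to 0.273 and 0.204, a log2 change of -3.23 ± 0.09. Adcy9, encoding an adenylyl cyclase, had 6.28 and 5.64 FPKM without LPS and 1.44 and 1.15 with it (log2 change -1.6 ± 0.09).

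**Figure D5:**
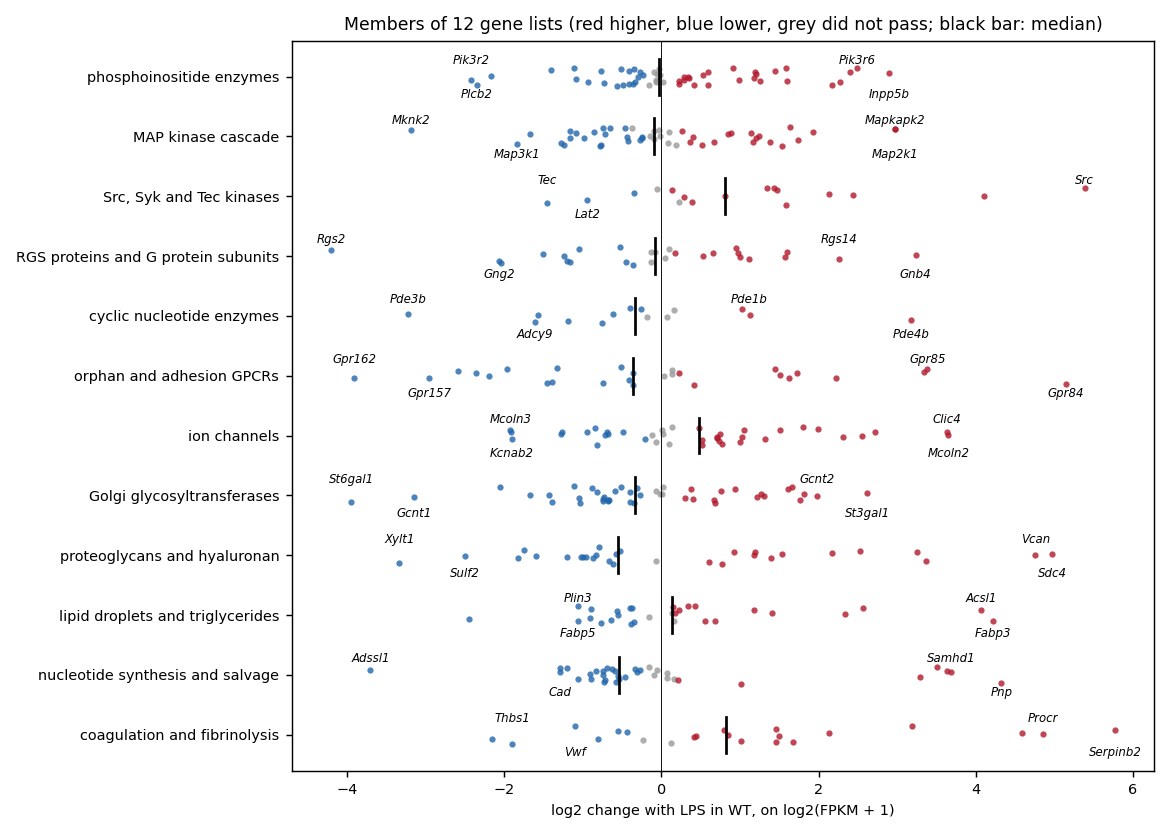
Log2 change with LPS in WT of each tested member (points, red where it rose, blue where it fell, grey where it did not pass) in 12 gene lists, with the named members labelled and a black bar at each list's median. The list of Src, Syk and Tec kinases, which also holds adaptors and related kinases, has its median at 0.81. The proteoglycans have theirs at -0.55, and every list has members on both sides of 0.

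Microtubule genes encode the tubulins and the motors that move along them. Of 91 genes listed under kinesins, dyneins and tubulins, 49 were tested, 16 rose (32.7%), 20 fell (40.8%) and 13 did not pass, with a median log2 change of -0.09. With TPM, 11 rose and 43 fell out of 64, with a median of -0.63. Tubb6, a beta-tubulin gene, moved from 21.2 and 17.3 FPKM to 77.2 and 85.8, or by 2.03 ± 0.10 on the log2 scale. Dync1i2, encoding an intermediate chain of cytoplasmic dynein, went from 14 and 13.9 FPKM to 55.6 and 57.9, a log2 change of 1.95 ± 0.04. The kinesin genes Kif13b and Kif21b fell: Kif13b had 22.4 and 20.7 FPKM without LPS and 4.52 and 4.08 with it (log2 change -2.09 ± 0.06), and Kif21b moved from 11.6 and 10.1 FPKM to 1.81 and 1.89, or by -2.05 ± 0.08 on the log2 scale.

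Fatty acid oxidation and nucleotide metabolism had more falls than rises. Of 34 genes listed under fatty acid oxidation, 32 were tested, 7 rose (21.9%), 20 fell (62.5%) and 5 did not pass, with a median log2 change of -0.56. With TPM, 3 rose and 27 fell out of 33, with a median of -1.21. Acox3, a peroxisomal acyl-CoA oxidase gene, went from 20.02 and 18.4 FPKM to 3.99 and 4.49, a log2 change of -1.95 ± 0.07. Cat, encoding the peroxide-degrading enzyme catalase, had 116 and 111 FPKM without LPS and 35.7 and 34.5 with it (log2 change -1.66 ± 0.05). Phyh, encoding phytanoyl-CoA hydroxylase, moved from 10.5 and 11.9 FPKM to 21.9 and 23.3, or by 0.96 ± 0.12 on the log2 scale. Acaa1a, encoding a peroxisomal thiolase, went from 16.4 and 16.3 FPKM to 38.1 and 40.2, a log2 change of 1.21 ± 0.05, but it overlaps Myd88 on the opposite strand, which itself went from 15.1 and 14.9 FPKM to 117 and 119. Of 37 genes listed under nucleotide synthesis and salvage, 35 were tested, 7 rose (20%), 22 fell (62.9%) and 6 did not pass, with a median log2 change of -0.54. With TPM, 6 rose and 31 fell out of 37, with a median of -1.18. Cad, encoding the enzyme that starts pyrimidine synthesis, had 5.88 and 4.58 FPKM without LPS and 1.6 and 1.45 with it (log2 change -1.3 ± 0.10). Pnp, encoding purine nucleoside phosphorylase, moved from 8.16 and 8.12 FPKM to 179 and 185, or by 4.33 ± 0.05 on the log2 scale, and it overlaps its copy Pnp2. Samhd1, whose product degrades deoxynucleotides, went from 21.3 and 20.8 FPKM to 277 and 290.0, a log2 change of 3.69 ± 0.05.

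Of 21 genes listed under serine and one-carbon metabolism, 17 were tested, 7 rose (41.2%), 4 fell (23.5%) and 6 did not pass, with a median log2 change of 0.01 that was -0.39 with total reads. With TPM, 7 rose and 9 fell out of 20, with a median of -0.45. Phgdh, encoding the entry enzyme of serine synthesis, had 2.62 and 1.74 FPKM without LPS and 24 and 19.7 with it (log2 change 2.85 ± 0.15). Mtr, encoding methionine synthase, moved from 7.0 and 7.04 FPKM to 0.945 and 1.2, or by -1.96 ± 0.08 on the log2 scale. Mthfd1, encoding a cytosolic folate enzyme, went from 5.07 and 5.02 FPKM to 1.73 and 0.994, a log2 change of -1.37 ± 0.15. Of 24 genes listed under polyamines, kynurenine and biopterin, 16 were tested, 6 rose (37.5%), 8 fell (50%) and 2 did not pass, with a median log2 change of -0.23. With TPM, 3 rose and 12 fell out of 20, with a median of -0.70. Odc1, encoding ornithine decarboxylase of polyamine synthesis, had 22.6 and 21.1 FPKM without LPS and 32.2 and 36.7 with it (log2 change 0.63 ± 0.07). Smox, encoding spermine oxidase, moved from 16.6 and 15.8 FPKM to 24.4 and 29.2, or by 0.69 ± 0.09 on the log2 scale, and Paox, encoding the oxidase of acetylated polyamines, went from 7.12 and 6.12 FPKM to 0.955 and 1.2, a log2 change of -1.87 ± 0.11. Paox overlaps Echs1 on the opposite strand. Spr, encoding sepiapterin reductase of biopterin synthesis, had 5.21 and 5.67 FPKM without LPS and 1.88 and 1.95 with it (log2 change -1.14 ± 0.12).

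Lipid droplets store triglycerides, and sphingolipids are lipids of membranes. Of 34 genes listed under lipid droplets and triglycerides, 29 were tested, 13 rose (44.8%), 13 fell (44.8%) and 3 did not pass, with a median log2 change of 0.14 that was -0.47 with total reads and -0.48 after quantile normalization. With TPM, 6 rose and 18 fell out of 30, with a median of -0.43. Acsl1, encoding an enzyme that activates long-chain fatty acids, moved from 4.32 and 4.14 FPKM to 88.3 and 85.4, or by 4.07 ± 0.05 on the log2 scale. The fatty acid-binding proteins split, as Fabp3 went from 3.49 and 3.85 FPKM to 85.3 and 87, a log2 change of 4.22 ± 0.09 and Fabp5 had 148 and 156 FPKM without LPS and 73.8 and 70.8 with it (log2 change -1.07 ± 0.06). Fabp3 overlaps Zcchc17 on the opposite strand, which did not pass (log2 change 0.19 ± 0.09). Plin3, encoding a lipid droplet coat protein, moved from 28.7 and 27.7 FPKM to 13.3 and 12.6, or by -1.07 ± 0.06 on the log2 scale. Of 33 genes listed under sphingolipids, 28 were tested, 13 rose (46.4%), 11 fell (39.3%) and 4 did not pass, with a median log2 change of 0.08 that was -0.43 with total reads and -0.20 after quantile normalization. With TPM, 9 rose and 19 fell out of 30, with a median of -0.51. Cers6, encoding a ceramide synthase, went from 12 and 11.3 FPKM to 68.6 and 67, a log2 change of 2.44 ± 0.05. Smpdl3b, of the acid sphingomyelinase-like family, had 1.5 and 1.42 FPKM without LPS and 10.4 and 10.6 with it (log2 change 2.22 ± 0.08). Galc, encoding lysosomal galactosylceramidase, moved from 12.8 and 13.1 FPKM to 2.43 and 2.14, or by -2.09 ± 0.06 on the log2 scale. Cerk, encoding ceramide kinase, went from 103 and 95.9 FPKM to 29.1 and 28.5, a log2 change of -1.75 ± 0.05.

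Protein folding held the list with the highest share of rises as deposited. Of 29 genes listed under heat shock proteins and chaperonin, 27 were tested, 21 rose (77.8%), 1 fell (3.7%) and 5 did not pass, with a median log2 change of 0.66. With TPM, 13 rose and 10 fell out of 28, with a median of 0.04. Hspa1a, encoding inducible Hsp70, had 0.277 and 0.341 FPKM without LPS and 5.18 and 5.98 with it (log2 change 2.33 ± 0.11). Its near-identical copy Hspa1b went from 0.569 and 0.328 FPKM to 4.34 and 4.59, and the reads of the pair may have been split between them. Dnaja2, encoding an Hsp40 co-chaperone, moved from 26.5 and 28.5 FPKM to 121 and 130.4, or by 2.15 ± 0.06 on the log2 scale. The 1 member that fell did not reach 5 FPKM. All 23 genes listed under aminoacyl-tRNA synthetases were tested, and 14 rose (60.9%), 5 fell (21.7%) and 4 did not pass, with a median log2 change of 0.36 that was -0.21 with total reads. With TPM, 7 rose and 10 fell out of 23, with a median of -0.20. Wars and Cars, the synthetase genes for tryptophan and cysteine, were the largest rises: Wars went from 15.5 and 13.8 FPKM to 67.1 and 70.3, a log2 change of 2.16 ± 0.06, and Cars had 5.47 and 5.09 FPKM without LPS and 18.4 and 16.6 with it (log2 change 1.55 ± 0.06). Farsb, encoding the beta chain for phenylalanine, moved from 13.7 and 13.1 FPKM to 8.36 and 7.93, or by -0.66 ± 0.06 on the log2 scale. Dars, encoding that for aspartate, went from 10.2 and 11.6 FPKM to 7.5 and 7.47, a log2 change of -0.49 ± 0.07. All 32 genes listed under ribosome biogenesis were tested, and 12 rose (37.5%), 10 fell (31.2%) and 10 did not pass, with a median log2 change of -0.02. With TPM, 1 rose and 25 fell out of 32, with a median of -0.60. Wdr43 had 7.38 and 7.01 FPKM without LPS and 22.5 and 25.1 with it (log2 change 1.6 ± 0.08), and it hosts a small nucleolar RNA gene on the same strand. Noc4l moved from 6.29 and 5.44 FPKM to 10.9 and 9.16, or by 0.68 ± 0.11 on the log2 scale. Nolc1 went from 6.95 and 6.93 FPKM to 5.31 and 5.03, a log2 change of -0.36 ± 0.06, and Pes1 had 18.9 and 19.3 FPKM without LPS and 16.2 and 16.5 with it (log2 change -0.21 ± 0.05).

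Mitochondrial lists lay below the background in both directions as deposited, which did not hold with TPM scaling. Of 78 genes listed under mitochondrial ribosome, 76 were tested, 22 rose (28.9%), 18 fell (23.7%) and 36 did not pass, with a median log2 change of -0.03. With TPM, 6 rose and 51 fell out of 77, with a median of -0.60. Mrpl52 moved from 6.7 and 8.5 FPKM to 39 and 36.4, or by 2.18 ± 0.13 on the log2 scale, and Mrpl39 went from 4.23 and 4.86 FPKM to 13.5 and 12.6, a log2 change of 1.34 ± 0.08. Mrpl41 had 9.71 and 12.2 FPKM without LPS and 3.88 and 4.89 with it (log2 change -1.15 ± 0.17), and Mrpl28 moved from 13.2 and 10.2 FPKM to 5.4 and 5.53, or by -0.96 ± 0.11 on the log2 scale. These 4 encode proteins of the large subunit. Of 26 genes listed under mitochondrial dynamics and biogenesis, 23 were tested, 7 rose (30.4%), 6 fell (26.1%) and 10 did not pass, with a median log2 change of 0.09 that was -0.45 with total reads and -0.14 after quantile normalization. With TPM, 2 rose and 16 fell out of 25, with a median of -0.46. Bnip3, encoding a receptor for removal of mitochondria by autophagy, went from 4.15 and 4.59 FPKM to 24.1 and 22.9, a log2 change of 2.19 ± 0.07, whereas its relative Bnip3l had 30.1 and 36.3 FPKM without LPS and 11.7 and 11.5 with it (log2 change -1.43 ± 0.08). Pink1, encoding a kinase of the same process, moved from 48.9 and 46.6 FPKM to 7.84 and 9.8, or by -2.32 ± 0.09 on the log2 scale. Dnm1l, encoding the fission protein DRP1, went from 11.6 and 12.9 FPKM to 23.4 and 23.4, a log2 change of 0.88 ± 0.06.

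Nuclear functions were counted in 4 lists. Of 58 genes listed under DNA repair, 39 were tested, 6 rose (15.4%), 26 fell (66.7%) and 7 did not pass, with a median log2 change of -0.42. With TPM, 0 rose and 46 fell out of 54, with a median of -1.0. Lig1, encoding DNA ligase 1, had 5.48 and 5.77 FPKM without LPS and 1.22 and 1.27 with it (log2 change -1.56 ± 0.08). Msh6, encoding a mismatch repair protein, moved from 5.32 and 5.33 FPKM to 2.24 and 2.31, or by -0.95 ± 0.08 on the log2 scale, and overlaps Fbxo11 on the opposite strand. Polb, encoding the base excision polymerase, went from 3.61 and 3.2 FPKM to 6.04 and 6.33, a log2 change of 0.71 ± 0.09. Nbn, encoding a member of the MRN complex, had 4.59 and 5.17 FPKM without LPS and 7.72 and 7.19 with it (log2 change 0.52 ± 0.09), a change that was -0.02 under total-read scaling. Of 51 genes listed under nuclear transport, 47 were tested, 24 rose (51.1%), 14 fell (29.8%) and 9 did not pass, with a median log2 change of 0.21 that was -0.35 with total reads and -0.04 after quantile normalization. With TPM, 8 rose and 30 fell out of 49, with a median of -0.36. Kpna3, encoding an importin alpha, moved from 14.4 and 14.6 FPKM to 129 and 137, or by 3.11 ± 0.05 on the log2 scale. Ranbp1, encoding a cofactor of the Ran GTPase, went from 5.31 and 4.99 FPKM to 26.2 and 26.4, a log2 change of 2.15 ± 0.09, and overlaps Trmt2a on the opposite strand. The importin genes Ipo4 and Ipo13 went down, as Ipo4 had 5.26 and 4.85 FPKM without LPS and 3.17 and 2.79 with it (log2 change -0.61 ± 0.08) and Ipo13 moved from 14.9 and 12.7 FPKM to 10.5 and 9.04, or by -0.45 ± 0.10 on the log2 scale.

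Of 53 genes listed under RNA helicases, 49 were tested, 23 rose (46.9%), 12 fell (24.5%) and 14 did not pass, with a median log2 change of 0.15 that was -0.46 with total reads and -0.19 after quantile normalization. With TPM, 8 rose and 33 fell out of 50, with a median of -0.44. Ddx58, encoding the viral RNA sensor RIG-I, went from 4.09 and 3.93 FPKM to 148 and 156, a log2 change of 4.93 ± 0.06, and its relative Ddx60 had 1.06 and 0.910 FPKM without LPS and 41.7 and 44.8 with it (log2 change 4.48 ± 0.07). Dhx34, encoding a helicase of nonsense-mediated decay, moved from 10.8 and 9.62 FPKM to 5.32 and 5.09, or by -0.85 ± 0.08 on the log2 scale. The X-linked helicase gene Ddx3x went from 78.4 and 83.5 FPKM to 60.6 and 62.6, a log2 change of -0.39 ± 0.05. Of 25 genes listed under p53 target genes, 22 were tested, 8 rose (36.4%), 10 fell (45.5%) and 4 did not pass, with a median log2 change of 0.06 that was -0.55 with total reads and -0.54 after quantile normalization. With TPM, 7 rose and 12 fell out of 22, with a median of -0.53. Fas, encoding a death receptor, had 1.44 and 1.33 FPKM without LPS and 38.6 and 40.3 with it (log2 change 4.08 ± 0.07). Gadd45b, encoding a stress-response protein, moved from 10.6 and 10.5 FPKM to 165 and 167, or by 3.85 ± 0.11 on the log2 scale. Sesn1, encoding a sestrin, went from 17 and 16.3 FPKM to 1.05 and 0.953, a log2 change of -3.14 ± 0.06, and Trp53inp1 had 7.46 and 7.97 FPKM without LPS and 1.31 and 1.23 with it (log2 change -1.94 ± 0.07).

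Clock genes and Kruppel-like factors are transcriptional regulators. Of 23 genes listed under circadian clock, 16 were tested, 4 rose (25%), 9 fell (56.2%) and 3 did not pass, with a median log2 change of -0.69. With TPM, 1 rose and 14 fell out of 20, with a median of -1.38. Tef, encoding a bZIP factor controlled by the clock, moved from 8.83 and 8.81 FPKM to 1.4 and 1.39, or by -2.04 ± 0.08 on the log2 scale. Per1, a core clock gene, went from 9.8 and 8.56 FPKM to 1.91 and 1.79, a log2 change of -1.83 ± 0.08. Csnk1d, encoding casein kinase 1 delta, had 31.9 and 31.7 FPKM without LPS and 44.6 and 44 with it (log2 change 0.47 ± 0.04). The rise of Csnk1d turned to -0.12 under TPM scaling. Of 17 genes listed under Kruppel-like factors, 11 were tested, 5 rose (45.5%), 4 fell (36.4%) and 2 did not pass, with a median log2 change of 0.02 that was -0.49 with total reads and -0.34 after quantile normalization. With TPM, 4 rose and 7 fell out of 11, with a median of -0.54. Klf6 moved from 40.4 and 42.5 FPKM to 230.2 and 226, or by 2.43 ± 0.05 on the log2 scale. Klf7 went from 1.17 and 1.26 FPKM to 11.1 and 10.4, a log2 change of 2.41 ± 0.07. Klf2, a factor known to restrain macrophage activation, had 7.01 and 5.75 FPKM without LPS and 2.93 and 2.68 with it (log2 change -0.95 ± 0.11), and Klf10 moved from 9.21 and 8.98 FPKM to 5.24 and 5.49, or by -0.67 ± 0.06 on the log2 scale.

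The deposited table also names a family for each transcription factor. Of 644 such genes tested, 218 rose (33.9%) and 245 fell (38.0%), and the families with at least 10 tested members were described after that column was seen. The C2H2 zinc fingers, the most numerous, had 285 tested members, of which 65 rose (22.8%) and 111 fell (38.9%). Within them Hivep3 went from 2.17 and 1.95 FPKM to 27.4 and 26.4, a log2 change of 3.19 ± 0.06, and the immediate-early factor Egr1 had 13.8 and 10.9 FPKM without LPS and 2.58 and 3.23 with it (log2 change -1.77 ± 0.13). The bZIP family had 39 tested members, with 21 rises (53.8%) and 12 falls (30.8%). Batf2 moved from 0.741 and 0.984 FPKM to 57 and 57.9, or by 4.97 ± 0.10 on the log2 scale and overlaps Arl2 on the opposite strand, which did not pass, while Fos, an AP-1 subunit, went from 117 and 105 FPKM to 15.2 and 16.6, a log2 change of -2.72 ± 0.07. Of 16 ETS factors 9 rose (56.3%) and 4 fell (25%), with Ets2 (7.1 and 6.51 FPKM to 83.4 and 84.8, log2 change 3.45 ± 0.07) and Fli1 (17.6 and 19.2 FPKM to 5.08 and 6.05, log2 change -1.57 ± 0.09) at the ends. Among 13 ARID genes 7 rose (53.8%) and 1 fell (7.69%), and among 11 forkhead genes 3 rose (27.3%) and 6 fell (54.5%). At their ends stood Jarid2 (4.05 and 3.58 FPKM to 16.3 and 17, log2 change 1.88 ± 0.07) and Arid1b (9.31 and 8.76 FPKM to 7.2 and 6.88, log2 change -0.32 ± 0.06), and Foxp4 (2.99 and 2.39 FPKM to 41.1 and 44.5, log2 change 3.57 ± 0.09) and Foxo3 (18 and 16.2 FPKM to 4.16 and 4.02, log2 change -1.83 ± 0.06).

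The remaining families had both rises and falls. The shares that rose and fell were 40% and 45.7% for bHLH, 45% and 50% for homeobox and 34.4% and 28.1% for ZBTB genes. They were 26.3% and 42.1% for MYB-domain and 44.4% and 27.8% for HMG genes. All family shares are to be read against the 37.7% and 33.9% of all tested genes, and families were not counted under TPM scaling. The 35 bHLH genes had 14 rises and 16 falls, with Mxd1, an antagonist of MYC, (2.39 and 2.39 FPKM to 62.2 and 70.8, log2 change 4.31 ± 0.09) and the blood-cell factor Lyl1 (44.2 and 39.7 FPKM to 5.05 and 4.0, log2 change -2.96 ± 0.10), which overlaps Nfix on the opposite strand. The 20 homeobox genes had 9 and 10, with Lhx2 (0.0104 and 0.0105 FPKM to 6.9 and 7.21, log2 change 3.0 ± 0.09) and Hhex (20.8 and 20.2 FPKM to 2.33 and 1.7, log2 change -2.84 ± 0.10). The 32 ZBTB genes had 11 and 9, with Zbtb7a (23.5 and 20.9 FPKM to 56.1 and 54.1, log2 change 1.28 ± 0.07) and Zbtb4 (15 and 13.4 FPKM to 5.63 and 5.66, log2 change -1.19 ± 0.07). The 19 MYB-domain genes had 5 and 8, with Mier3 (1.35 and 1.64 FPKM to 16.9 and 17, log2 change 2.85 ± 0.09). The 18 HMG genes had 8 and 5, with Tox4 (12.2 and 12.3 FPKM to 28.4 and 30.4, log2 change 1.2 ± 0.05) and Hmgb1 (6.43 and 7.93 FPKM to 2.9 and 3.24, log2 change -1.0 ± 0.11).

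Notch, TGF-beta and guidance molecules are signalling systems best known from development. Of 32 genes listed under Notch pathway, 25 were tested, 10 rose (40%), 10 fell (40%) and 5 did not pass, with a median log2 change of 0.09 that was -0.56 with total reads and -0.26 after quantile normalization. With TPM, 9 rose and 18 fell out of 28, with a median of -0.56. Jag1, encoding a ligand, had 8.81 and 7.82 FPKM without LPS and 55.2 and 55 with it (log2 change 2.59 ± 0.07). Dtx2, encoding a Deltex ubiquitin ligase, moved from 2.35 and 1.97 FPKM to 38.7 and 39.7, or by 3.67 ± 0.07 on the log2 scale. Lfng, encoding a glycosyltransferase that modifies Notch, went from 31.8 and 30.1 FPKM to 7.25 and 8.47, a log2 change of -1.85 ± 0.07, and Psen2, encoding a gamma-secretase subunit, had 46.5 and 45.5 FPKM without LPS and 14.9 and 15.1 with it (log2 change -1.56 ± 0.05). Of 43 genes listed under TGF-beta and BMP pathway, 34 were tested, 14 rose (41.2%), 12 fell (35.3%) and 8 did not pass, with a median log2 change of 0.12 that was -0.42 with total reads and -0.18 after quantile normalization. With TPM, 7 rose and 21 fell out of 36, with a median of -0.46. Inhba, encoding the activin A subunit, moved from 0.464 and 0.187 FPKM to 31.2 and 29.2, or by 4.56 ± 0.17 on the log2 scale, and Eng, encoding the co-receptor endoglin, went from 11.3 and 10.2 FPKM to 80.4 and 87.8, a log2 change of 2.86 ± 0.10. Inhba overlaps an antisense gene and Eng overlaps Fpgs, which fell. Ski, encoding a repressor of SMAD proteins, had 56.6 and 53.2 FPKM without LPS and 12.6 and 11.6 with it (log2 change -2.1 ± 0.06), and Nrros, encoding a protein that anchors latent TGF-beta in myeloid cells, moved from 56.2 and 52.9 FPKM to 20.6 and 19.4, or by -1.41 ± 0.05 on the log2 scale. Of 63 genes listed under guidance molecules, 19 were tested, 7 rose (36.8%), 9 fell (47.4%) and 3 did not pass, with a median log2 change of -0.15. With TPM, 6 rose and 15 fell out of 26, with a median of -0.69. The semaphorin receptor gene Nrp2 went from 31.4 and 29.8 FPKM to 224 and 219, a log2 change of 2.82 ± 0.05, and the plexin gene Plxnc1 had 75 and 74.4 FPKM without LPS and 10.9 and 10.7 with it (log2 change -2.68 ± 0.05). The semaphorin genes Sema4c and Sema6b split: Sema4c moved from 2.16 and 1.98 FPKM to 19 and 19.3, or by 2.71 ± 0.07 on the log2 scale and Sema6b went from 5.53 and 4.59 FPKM to 0.997 and 1.19, a log2 change of -1.53 ± 0.10.

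Ion channels and metal carriers move ions across membranes. Of 155 genes listed under ion channels, 39 were tested, 20 rose (51.3%), 13 fell (33.3%) and 6 did not pass, with a median log2 change of 0.47 that was -0.22 with total reads. With TPM, 16 rose and 20 fell out of 46, with a median of -0.24. The list also took in Tmem160, Tmem164, Tmem165, Tmem167 and Tmem168, which are not established ion channels and counted among both rises and falls. Its median as deposited was the value of Tmem167, so the counts and medians are those of this wider list. The lysosomal mucolipin channel genes, members of a single family, went opposite ways, since Mcoln2 had 6.98 and 6.54 FPKM without LPS and 95.9 and 97 with it (log2 change 3.65 ± 0.07) and Mcoln3 moved from 39.4 and 38.3 FPKM to 9.3 and 9.77, or by -1.92 ± 0.08 on the log2 scale. Clic4, encoding a chloride intracellular channel protein, went from 45 and 46.9 FPKM to 577 and 589.8, a log2 change of 3.64 ± 0.04. Kcnab2, encoding a potassium channel beta subunit, had 18.8 and 17.1 FPKM without LPS and 4.43 and 3.71 with it (log2 change -1.91 ± 0.08). Of 35 genes listed under zinc and copper handling, 26 were tested, 14 rose (53.8%), 5 fell (19.2%) and 7 did not pass, with a median log2 change of 0.30 that was -0.14 with total reads. With TPM, 10 rose and 12 fell out of 28, with a median of -0.16. Mt2, encoding a metallothionein, moved from 0.155 and 0.547 FPKM to 29.3 and 30.8, or by 4.54 ± 0.16 on the log2 scale. Slc39a14, encoding the zinc and iron importer ZIP14, went from 1.96 and 1.57 FPKM to 40.4 and 42.4, a log2 change of 3.94 ± 0.08. Slc39a11 had 16 and 15.2 FPKM without LPS and 5.36 and 5.95 with it (log2 change -1.32 ± 0.08), and Ccs, encoding the copper chaperone of superoxide dismutase, moved from 14.2 and 14.5 FPKM to 6.38 and 7.84, or by -0.93 ± 0.09 on the log2 scale.

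Membrane fusion and the cell surface were the last groups. Of 46 genes listed under SNARE proteins, 37 were tested, 21 rose (56.8%), 10 fell (27%) and 6 did not pass, with a median log2 change of 0.34 that was -0.11 with total reads. With TPM, 9 rose and 19 fell out of 40, with a median of -0.25. Stx11, encoding a syntaxin of immune cells, went from 2.31 and 2.76 FPKM to 45 and 49.7, a log2 change of 3.78 ± 0.09. Stxbp3 had 7.07 and 8.16 FPKM without LPS and 35.2 and 39 with it (log2 change 2.14 ± 0.08), Snap47 moved from 14.4 and 15.5 FPKM to 3.54 and 4.09, or by -1.73 ± 0.09 on the log2 scale, and Stxbp5 went from 14.5 and 14.3 FPKM to 5.75 and 6.2, a log2 change of -1.14 ± 0.06. Of 85 genes listed under Golgi glycosyltransferases, 44 were tested, 16 rose (36.4%), 24 fell (54.5%) and 4 did not pass, with a median log2 change of -0.33. With TPM, 11 rose and 36 fell out of 54, with a median of -0.95. St3gal1, which adds alpha-2,3-linked sialic acid, had 20.5 and 18.5 FPKM without LPS and 124 and 125 with it (log2 change 2.62 ± 0.07). The branching enzyme genes Gcnt2 and Gcnt1 split, as Gcnt2 moved from 2.13 and 2.08 FPKM to 10.8 and 11.8, or by 1.98 ± 0.08 on the log2 scale and Gcnt1 went from 14.6 and 15 FPKM to 0.841 and 0.737, a log2 change of -3.14 ± 0.11. Of 68 genes listed under proteoglycans and hyaluronan, 30 were tested, 13 rose (43.3%), 16 fell (53.3%) and 1 did not pass, with a median log2 change of -0.55. With TPM, 12 rose and 18 fell out of 37, with a median of -0.52. Sdc4, encoding a cell surface heparan sulfate proteoglycan, had 18.7 and 17.4 FPKM without LPS and 593 and 603 with it (log2 change 4.98 ± 0.06). Vcan, encoding the matrix proteoglycan versican, moved from 0.558 and 0.582 FPKM to 40.6 and 42.5, or by 4.76 ± 0.06 on the log2 scale. Xylt1, encoding an enzyme that starts glycosaminoglycan chains, went from 22.5 and 21.3 FPKM to 1.24 and 1.29, a log2 change of -3.33 ± 0.06. Sulf2, encoding a heparan sulfatase of the cell surface, had 36.3 and 33.8 FPKM without LPS and 5.04 and 5.77 with it (log2 change -2.49 ± 0.11).

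Of 29 genes listed under coagulation and fibrinolysis, 22 were tested, 14 rose (63.6%), 6 fell (27.3%) and 2 did not pass, with a median log2 change of 0.83. With TPM, 13 rose and 8 fell out of 24, with a median of 0.67. Procr, encoding the endothelial protein C receptor, moved from 3.73 and 3.01 FPKM to 118 and 132, or by 4.85 ± 0.10 on the log2 scale. Thbs1, encoding thrombospondin 1, went from 560.1 and 545 FPKM to 136 and 159, a log2 change of -1.9 ± 0.09, and Vwf, encoding von Willebrand factor, had 13.6 and 11.8 FPKM without LPS and 5.54 and 5.28 with it (log2 change -1.1 ± 0.07). Of 29 genes listed under SNHG and miRNA host genes, 17 were tested, 4 rose (23.5%), 6 fell (35.3%) and 7 did not pass, with a median log2 change of -0.29. With TPM, 3 rose and 14 fell out of 21, with a median of -0.86. Zfas1 moved from 2.52 and 2.7 FPKM to 12 and 11.2, or by 1.8 ± 0.09 on the log2 scale, but it overlaps Znfx1, which went from 23.7 and 21.8 FPKM to 348 and 365. Neat1, the architectural RNA of paraspeckles, went from 69.1 and 62.1 FPKM to 38.5 and 37.5, a log2 change of -0.77 ± 0.06, and Gas5 had 5.2 and 5.18 FPKM without LPS and 3.14 and 3.67 with it (log2 change -0.50 ± 0.08).

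Most of the macrophage markers changed. Fcgr1, encoding the high-affinity IgG receptor, moved from 48.5 and 50.6 FPKM to 550.4 and 586, or by 3.49 ± 0.05 on the log2 scale. Cd14, encoding a co-receptor for LPS, went from 345 and 360.4 FPKM to 1402 and 1511, a log2 change of 2.04 ± 0.05. Mertk, encoding a receptor for uptake of dying cells, had 32.2 and 29.1 FPKM without LPS and 8.36 and 8.11 with it (log2 change -1.77 ± 0.07). Csf1r, the receptor gene for CSF1, moved from 692 and 656 FPKM to 404 and 403, or by -0.74 ± 0.05 on the log2 scale. Further, Adgre1 was at 0.41, Cd68 at -0.30, C1qa at -0.27, C1qc at -0.44 and Itgam at 0.19 on the log2 scale, and Itgam did not pass. The rise of Adgre1 turned to -0.19 under TPM scaling.

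The WT response was also compared with that of the libraries labelled KO, as the LPS change in WT less that in KO. Elf1 reads were still present in those libraries, so the label is used only as a label. Without LPS, Elf1 was at 16.9 and 16.1 FPKM in KO, above the 12.4 and 14.1 FPKM in WT. With LPS it was at 16.5 and 17.9 FPKM in KO, below the 21.9 and 22.4 FPKM in WT. The number of genes passing this test moved with the scaling. It was 1403 of 15752 with TPM, 2007 of 12137 with total reads and 1499 of 11887 after quantile normalization. Small differences between WT and KO therefore have a direction only relative to a scaling. As deposited, 1900 of 11887 genes (16%) passed. The WT change was more positive for 1229 of them (10.3%) and more negative for 671 (5.64%). The count was 963 and 975 without replicate 1 or 2 of KO without LPS, 1030 and 1241 without replicate 2 or 1 of WT with LPS and 1260 without replicate 1 of KO with LPS. Among the 16 largest rises 10 passed, for example Lipg, which rose by 1.89 more in WT, Hcar2 (1.43) and Calhm6 (1.35). Among the 16 largest falls 5 passed, and Arhgap19, with a difference of -0.11, was not one of them. These rises and falls were chosen by their WT change, which enters the difference, so their counts are not compared with the share of all genes. Src did not pass, at -0.19. By list, the members that passed were 15 of 30 for proteoglycans and hyaluronan, 9 of 23 for aminoacyl-tRNA synthetases and 17 of 53 for phosphoinositide enzymes, and 0 of 76 for the mitochondrial ribosome.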

How the data were processed

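RNA was extracted with TRIzol, per the labels' protocols, from 8 samples of macrophages, 2 in each of 4 groups. The authors deposited 1 table of FPKM for 54532 genes, with gene positions and, as another measure, gene length in bases. The submitters' processing notes list the build mm10 and the tool DESeq2, without saying at which step. For the aligner, counter, annotation release and strandedness nothing is given in the sources used here.

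FPKM times gene length gave whole multiples of 1 step per library for 100% of values above 0 (within 0.001), from which reads were rebuilt. The implied library size was 1.21 and 1.23 times the rebuilt reads in WT without LPS and 0.797 and 0.784 times in WT with LPS. In KO it was 1.28 and 1.28 times without LPS and 0.925 and 0.914 times with LPS. The deposited values are therefore not scaled to total reads. The drop with LPS was smaller in KO, so the scaling also shifts the difference between the WT and KO changes.

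Genes that reached an FPKM of 1 in 2 or more libraries were tested with limma-trend 3.58.1 (R 4.3.3) on log2(FPKM + 1), with all 8 libraries and 4 groups in 1 model (4 residual degrees of freedom, prior 2.74). The script was tested on simulated data. The members, the 35 lists and the named genes were chosen with earlier results of these data known. Symbols of predicted genes and clones, genes of mitochondrial DNA and repeated symbols were not named. The best known inflammatory set was 437 tested genes matched by symbol, among them cytokine, chemokine, interferon-stimulated, antigen presentation and NF-kB pathway genes. Named were the 16 largest rises and falls outside the best known inflammatory set, with a mean of at least 5 FPKM in the higher group. For these, no overlap between WT groups was also required. The 2 largest per list and direction were named with the same minimum mean. The 8 largest gains and losses in FPKM and the 10 most abundant stable genes were named without either condition. Macrophage markers, transcription factor extremes, the genes that crossed 0.1 and 5 FPKM and those with a promoter motif were added, the last 3 after values were seen. Alternatives were other pseudocounts (0.1 and 5), filters, scalings, limma without a trend or robust, voom on rebuilt reads, WT libraries alone, a replicate block and each library left out. Some genes that the rule names, and 2 further gene lists, are not reported here.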

Additional observations from a re-analysis of the deposited data

Results flagged for a closer look

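The LPS change of 93 of the 228 named genes differed between WT and the libraries labelled KO in the test of that difference (limma interaction term, adjusted p under 0.05 over 11887 genes), against 16% of all tested genes. Values in parentheses are the LPS change in WT less that in KO, on the log2 scale as deposited. Small differences have a direction only relative to that scaling. The genes were named for their WT change, which enters this difference, so their share is not compared with that background.

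Among genes that rose in WT, 55 had a more positive change there. From the top, these were Lipg (1.89), Rsad2 (1.89), Lhx2 (1.71), Mxd1 (1.66), Scimp (1.64), Mier3 (1.54), Gnb4 (1.49), Hcar2 (1.43), Calhm6 (1.35), Ranbp1 (1.14), Klf6 (1.13), Rgs14 (1.13), Kpna3 (1.11), Olfr56 (1.09), Slamf1 (1.07), Dnaja2 (1.06), Vcan (1.04), Ccnd2 (1.02), Pnp2 (1.02) and Ch25h (1.01). Smaller differences were found for Slc28a2 (0.99), Slc2a6 (0.99), Sema4c (0.95), Ddx60 (0.93), Wdr43 (0.90), Hspa1a (0.87), Mt2 (0.86), Samhd1 (0.77), Stxbp3 (0.75), Dync1i2 (0.74), Acod1 (0.71), Mir155hg (0.70), Mmp13 (0.69), Batf2 (0.68), Gadd45b (0.64), Fabp3 (0.63), Ddx58 (0.62), Slco3a1 (0.60), Wars (0.60), Sdc4 (0.57), Pnp (0.54), Inpp5b (0.54), Fas (0.52), Stx11 (0.48), Rgl1 (0.48), Cers6 (0.44), Jag1 (0.44), Jarid2 (0.43), Tox4 (0.43), Map2k1 (0.42), Hivep3 (0.37), Nrp2 (0.33), Clic4 (0.28), Fcgr1 (0.27) and Csnk1d (0.23).

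Of the genes that fell in WT, 32 had a more negative change there than in KO, and 29 of them also fell in KO while Ipo4, Ipo13 and Nolc1 did not pass there. From the top they were Lfng (-1.05), Kcnab2 (-0.93), Pik3r2 (-0.91), Adssl1 (-0.87), Per1 (-0.82), Mknk2 (-0.82), Klc4 (-0.79), Lyl1 (-0.79), Sema6b (-0.77), Adcy9 (-0.67), Cad (-0.65), Fos (-0.64) and Foxo3 (-0.62). Smaller differences were found for Bnip3l (-0.59), Ipo13 (-0.54), Fli1 (-0.54), Gpr162 (-0.52), Ipo4 (-0.50), Kif21b (-0.48), Ski (-0.47), Tef (-0.46), Engase (-0.45), Psen2 (-0.44), Zfp36l2 (-0.42), Mcoln3 (-0.41), Neat1 (-0.41), Farsb (-0.39), Cat (-0.39), Csf1r (-0.35), Plin3 (-0.33), Ftl1 (-0.33) and Nolc1 (-0.31).

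The difference ran the other way for a few genes. Egr1 (1.34), Klf2 (1.15) and Mertk (0.81) fell in WT with a change more positive than in KO. Adgre1 (-0.39) and Cd38 (-0.34) rose in WT with a change less positive than in KO. Efhd2 (-0.36), which did not pass in WT, had a change below that in KO. Leaving out 1 library at a time moved the number of genes passing this test over all genes from 1900 to between 963 and 1739, with 963 without replicate 1 of KO without LPS and 1030 without replicate 2 of WT with LPS.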

How the results depend on the processing

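As deposited, 4476 genes rose and 4028 fell. An FPKM minimum of 5 gave 3545 rises and 2190 falls among the 7102 genes that reached it. TPM scaling gave 2763 rises and 7979 falls among 15752 genes that reached the filter, against 11887 as deposited, and total-read scaling 2454 and 7236 among 12137. These scalings set library totals rather than typical genes equal, and the median change of all genes under them was -0.51 and -0.48. Which scaling is right was not tested. Leaving out 1 library at a time gave 4140 to 4518 rises, 3619 to 4041 falls and 963 to 1739 genes with a different response in KO. The 1900 such genes became 1260 without replicate 1 of KO with LPS, 975 without replicate 2 of KO without LPS and 1241 without replicate 1 of WT with LPS. Of 4787 recomputed changes of named genes, 4717 kept their side of the threshold and, where they passed, their direction. With the direction kept, 26 no longer passed and 23 newly passed. Another 21 reversed and passed as deposited, in the alternative or in both. A turn of sign between values that passed in neither was not counted, as for Itgam (0.19 as deposited and -0.40 with TPM). The reversals under TPM scaling were Csnk1d (-0.12), Fth1 (-0.30), Eef1a1 (-0.53), C1qb (-0.49), Efhd2 (-0.52), Unc93b1 (-0.58) and Adgre1 (-0.19). Under total-read scaling they were Nbn (-0.016), Csnk1d (-0.15), Fth1 (-0.33), Eef1a1 (-0.55), C1qb (-0.52), Efhd2 (-0.55), Unc93b1 (-0.60), Adgre1 (-0.22) and Itgam (-0.41). Quantile normalization reversed Csnk1d (-0.21), C1qb (-0.74), Efhd2 (-1.0), Unc93b1 (-1.01) and Adgre1 (-0.67). Replicate numbers did not pair the libraries, since deviations of same-numbered libraries correlated at -0.077 to 0.033; with the replicate number as a block 4439 genes rose, 3968 fell and 1646 differed in KO. With 2 libraries against 2, an exact permutation test of a single gene cannot go below 0.333, so calls rest on the spread shared across genes, and a gene at 0 in a library may hold up to 3 reads by counting error alone.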
